A study of Homo sapiens with 4 samples.

Results

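The miR-548 family on the miRNA array was taken as every human probe named miR-548, with any letter and either arm, leaving out names that end in an asterisk. The rule used the probe names alone and found 30 probes among 1276 human miRNA probes, each spotted 4 times. No passenger-strand probe of the family, marked by an asterisk, was on the array. Total RNA came from stable transfectants of HT-29 and LS174T, both established human colon cancer cell lines, and each condition was measured on 1 array.

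Cells named shRNA-Ascl2, followed by their line (shRNA-Ascl2/HT-29), carried an EGFP vector with a short hairpin RNA against Ascl2, a bHLH transcription factor of intestinal stem cells. Cells named shRNA-Ctr (shRNA-Ctr/HT-29) carried the EGFP vector with no hairpin insert, so that expression of any hairpin and the sequence against Ascl2 cannot be told apart. The array holds miRNA probes, so Ascl2 itself was not measured on it. All 4 transfectants grew under G418, at 0.4 mg/ml in HT-29 and 0.2 mg/ml in LS174T cells, so that drug dose and cell line cannot be told apart. Clones were selected, and which clone went to the array is not given in the sources used here. The comparison within each line asks how the miRNAs of Ascl2-silenced cells differ from those of control cells. With 1 array per condition it has no replicate check, and the SD given below is over the 4 spots of an array, which is technical.

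The miR-548 genes are found in primates and derive from MADE1, a short palindromic element of the mariner type of DNA transposon. A transcribed copy folds back into a hairpin, from which Drosha and Dicer can cut a mature miRNA of either arm. Many copies lie in introns of other genes. The mature miRNA guides Argonaute to mRNAs mainly through its seed, bases 2 to 8, so members with different seeds need not share targets.

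RefSeq (GRCh38.p14) held a mature sequence under the exact probe name for 13 of the 30 members, of 21 to 23 bases. They are shown for the matched members above 50 on any array (miR-548l, miR-548m) and for miR-548n, the dim member nearest the limit. miR-548k is shown as the closest to miR-548l among matched members of the same length. The members without a match were not compared, and some may be closer. The largest matched group with a shared seed (miR-548b-5p, miR-548w, miR-548y) is also shown. For miR-548t the 5p arm is shown; which arm the probe captures is not given in the sources used here. Sequences run 5′ to 3′ and capitals mark the seed.
miR-548t-5p: cAAAAGUGaucgugguuuuug
miR-548l: aAAAGUAUuugcggguuuuguc
miR-548k: aAAAGUACuugcggauuuugcu
miR-548m: cAAAGGUAuuugugguuuuug
miR-548n: cAAAAGUAauuguggauuuugu
miR-548b-5p: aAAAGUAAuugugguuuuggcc
miR-548w: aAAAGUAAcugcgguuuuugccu
miR-548y: aAAAGUAAucacuguuuuugcc

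The 13 matched members had 11 different seeds, and in 9 of them the seed began with AAA. Among these 13, only AAAGUAA was shared, by miR-548b-5p, miR-548w and miR-548y, and it occurs in 12 RefSeq human miRNAs in all. GC content of the 13 ran from 27.3% to 54.5%, with a median of 36.4%. By coordinates alone, without regard to strand, miR-548l (chr11:94466545-94466566, minus strand) lay within MRE11, a gene of the double-strand break repair complex. Likewise miR-548k (chr11:70283986-70284007, plus strand) lay within PPFIA1, and miR-548t-5p (chr4:173268169-173268189, plus strand) within GALNT7, which encodes an enzyme that adds sugars to proteins. For miR-548m (chrX:95063192-95063212, minus strand) the annotation held no overlapping gene besides its own.

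Values are net signals, the foreground of a spot minus its local background, in linear intensity units, averaged over the 4 spots. A probe was counted as above background when its net signal was over 50, the limit of the study's normalization. The cell lines were checked against 8 epithelial miRNAs: miR-192, miR-194, miR-215, miR-200a, miR-200b, miR-200c, miR-141 and miR-429. Of these, 7 passed 50 with shRNA-Ascl2 and 7 with shRNA-Ctr in HT-29, and 8 with shRNA-Ascl2 and 7 with shRNA-Ctr in LS174T. miR-215 was at −2.25 with shRNA-Ascl2 and 17 with shRNA-Ctr in HT-29, and at 50.5 with shRNA-Ascl2 and 19.75 with shRNA-Ctr in LS174T. The summed net signal of the 8 was 176055 with shRNA-Ascl2 and 207062 with shRNA-Ctr in HT-29. In LS174T it was 161222 with shRNA-Ascl2, but 22139 on the shRNA-Ctr/LS174T array. That array also had all 4 blood miRNAs of the list above 50, against 1 of 4 on each of the other arrays. Of these, miR-451, miR-144 and miR-223 were highest there, but miR-142-3p was lowest there, at 97.25. Their summed signal was 751 there, 308.75 with shRNA-Ascl2 in LS174T, and in HT-29 1492.25 with shRNA-Ascl2 and 1022.5 with shRNA-Ctr. Of 2 neuronal miRNAs, miR-124 and miR-9, 1 passed 50 on each HT-29 array and 2 on each LS174T array. Of 4 stromal miRNAs, 0 passed with shRNA-Ascl2 and 1 with shRNA-Ctr in HT-29, and 1 with shRNA-Ascl2 and 2 with shRNA-Ctr in LS174T. The endothelial miR-126 passed on both HT-29 arrays and on neither LS174T array. By the epithelial sum and the blood count, though not the blood sum, the shRNA-Ctr/LS174T array stands apart from the rest. After scaling, the median ratio of shRNA-Ascl2 to shRNA-Ctr over 40 spike-in controls was 9.22 in LS174T and 0.992 in HT-29. Every comparison within LS174T rests on this pair of arrays, none can be made without it, and the part of these differences in the results was not tested.

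Most of the family did not pass the limit of 50 in either line. Above 50 were 5 of 30 members (16.7%, 95% Wilson interval 7.34 to 33.6%) with shRNA-Ascl2 and 5 of 30 (16.7%, 7.34 to 33.6%) with shRNA-Ctr in HT-29. In LS174T, 4 of 30 (13.3%, 5.31 to 29.7%) were above 50 in shRNA-Ascl2 cells and 6 of 30 (20.0%, 9.51 to 37.3%) in shRNA-Ctr cells. The intervals treat probes as independent draws, which related sequences are not. Among the 1246 other human probes the share was 42.1% with shRNA-Ascl2 and 43.7% with shRNA-Ctr in HT-29, and 42.5% with shRNA-Ascl2 and 43.6% with shRNA-Ctr in LS174T. The 146 probes for viral miRNAs were taken as a rough reading of background in cells not labelled as infected. They had 31.5% above 50 with shRNA-Ascl2 and 32.2% with shRNA-Ctr in HT-29, and 28.1% with shRNA-Ascl2 and 36.3% with shRNA-Ctr in LS174T. Some were bright, up to 6591 with shRNA-Ascl2 and 5838 with shRNA-Ctr in HT-29, and 3655.5 with shRNA-Ascl2 and 4379.5 with shRNA-Ctr in LS174T. Their share is therefore not that of background alone. The family thus had a smaller share above 50 than the viral probes on all 4 arrays. Of 7 negative controls, 0 passed 50 on the shRNA-Ascl2/LS174T array and 1 on each of the others.

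**Figure D1:**
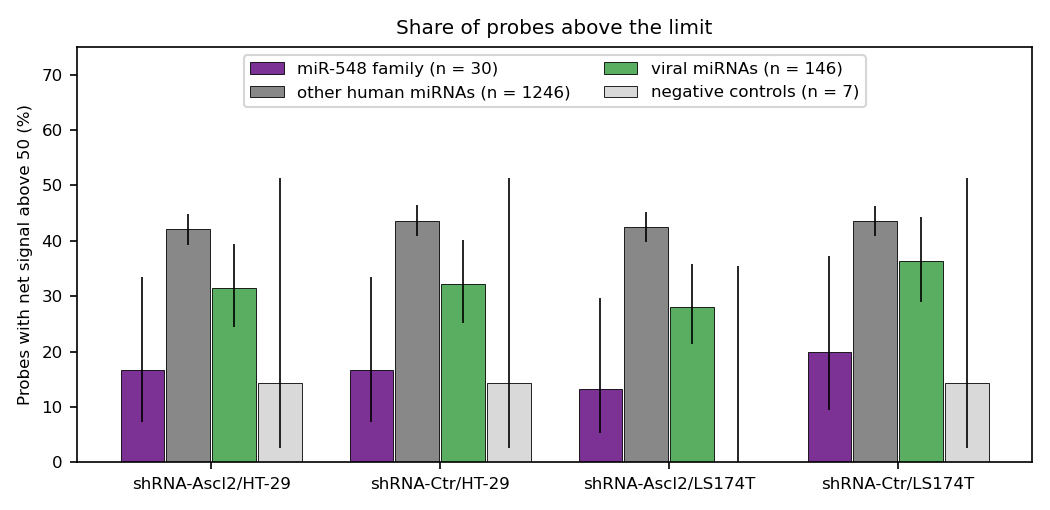
Percent of probes with a net signal above 50 on each of the 4 arrays, for the miR-548 family, the other human miRNAs, viral miRNAs and negative controls; bars are shares and lines are 95% Wilson intervals over probes. The family stood at 13.3% to 20.0%, the other human miRNAs at 42.1% to 43.7%.

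Over the 4 arrays together, 23 of 30 members (76.7%) were above 50 on none, 1 on 1, 2 on 2, 1 on 3 and 3 on all 4 (10%). Of the other human probes 48.1% were above 50 on no array and 34.7% on all 4, and of the viral probes 59.6% and 24.7%. The median net signal of the 30 members was 2.38 with shRNA-Ascl2 and 11.8 with shRNA-Ctr in HT-29, and 9 with shRNA-Ascl2 and 0.125 with shRNA-Ctr in LS174T. At or below 0 were 14 members with shRNA-Ascl2 and 10 with shRNA-Ctr in HT-29, and 12 with shRNA-Ascl2 and 15 with shRNA-Ctr in LS174T.

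Base composition differed between the family and many other probes. With a bound of 41% GC, under which 12 of the 13 matched members lay, the 115 other human miRNAs of low GC had 28.7% above 50 with shRNA-Ascl2 and 33.0% with shRNA-Ctr in HT-29, and 30.4% with shRNA-Ascl2 and 33.9% with shRNA-Ctr in LS174T. The 410 of higher GC had 41.5% with shRNA-Ascl2 and 40.7% with shRNA-Ctr in HT-29, and 39.8% with shRNA-Ascl2 and 42.2% with shRNA-Ctr in LS174T. This bound was chosen after a first bound, the 54.5% GC of miR-548q, had been examined. With that first bound, the 320 miRNAs at or under it had 37.2% above 50 with shRNA-Ascl2 and 39.4% with shRNA-Ctr in HT-29, and 39.1% with shRNA-Ascl2 and 41.3% with shRNA-Ctr in LS174T. The 205 over it had 40.98% with shRNA-Ascl2 and 38.5% with shRNA-Ctr in HT-29, and 35.6% with shRNA-Ascl2 and 39.02% with shRNA-Ctr in LS174T. Low-GC miRNAs thus had the smaller share on all 4 arrays with the later bound and on 1 array with the first. Of the 13 matched members, 2 were above 50 on the shRNA-Ctr/LS174T array and 1 on each of the others. The part of base composition in the family's low share was not tested.

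**Figure D2:**
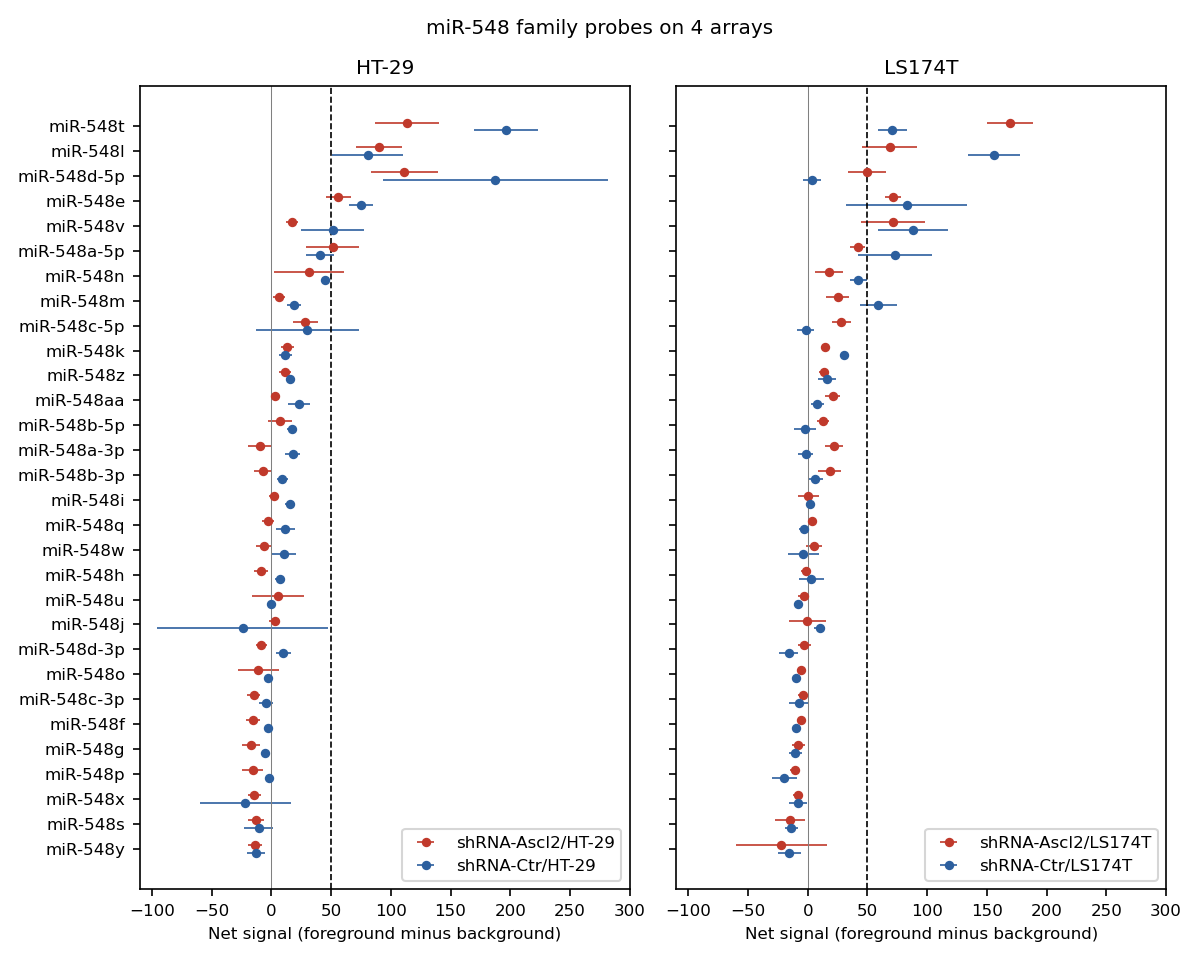
Net signal (linear intensity, mean ± SD over 4 spots) of the 30 members in HT-29 (left) and LS174T (right), with shRNA-Ascl2 cells in red and shRNA-Ctr cells in blue; the dashed line is the limit of 50. Members are ordered by their mean over the 4 arrays, and 23 of them stayed under the limit everywhere.

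miR-548t, miR-548l and miR-548e were above 50 on every array. miR-548t had 113.5 ± 27.0 in shRNA-Ascl2/HT-29 and 196.3 ± 26.7 in shRNA-Ctr/HT-29 cells (SD over 4 spots). In LS174T it had 169.8 ± 19.2 in shRNA-Ascl2 and 71 ± 12.2 in shRNA-Ctr cells. Its spots ran from 83 to 147 with shRNA-Ascl2 and 162 to 225 with shRNA-Ctr in HT-29. In LS174T they ran from 144 to 188 with shRNA-Ascl2 and 57 to 86 with shRNA-Ctr. The shRNA-Ascl2 cells were thus the lower in HT-29 and the higher in LS174T. How many human probes have spots apart in this way was not counted, here or for the members below, so it marks no member out.

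miR-548l had 90 ± 18.99 in shRNA-Ascl2/HT-29 and 80.5 ± 29.7 in shRNA-Ctr/HT-29 cells, with spots of 72 to 111 against 54 to 123. In LS174T it had 68.8 ± 23.1 in shRNA-Ascl2 cells, with spots of 36 to 88, and 156 ± 22.1 in shRNA-Ctr cells, with spots of 135 to 181. The spots thus overlapped in HT-29 and lay apart in LS174T, where shRNA-Ascl2 cells were the lower. miR-548k differs from it at 4 of 22 bases, C8U, A15G, C21U and U22C, counted from the 5′ end with the base of miR-548k first. miR-548k stood at 13.3 with shRNA-Ascl2 and 11.8 with shRNA-Ctr in HT-29, and at 14.8 with shRNA-Ascl2 and 30.8 with shRNA-Ctr in LS174T, under the limit on all 4 arrays. Probe sequences were not used here, so how far each probe also binds the other miRNA was not tested.

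miR-548e had the most even levels of the 3. It had 56 ± 10.4 in shRNA-Ascl2/HT-29 and 74.8 ± 10.0 in shRNA-Ctr/HT-29 cells, and 71.5 ± 6.403 in shRNA-Ascl2/LS174T and 82.8 ± 50.3 in shRNA-Ctr/LS174T cells. The spots of the shRNA-Ctr/LS174T array ran from 43 to 154.

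miR-548d-5p was above 50 in HT-29 only. It had 111.3 ± 27.9 in shRNA-Ascl2/HT-29 and 187.5 ± 94.3 in shRNA-Ctr/HT-29 cells, where its spots ran from 95 to 312. In LS174T it had 49.5 ± 15.9 in shRNA-Ascl2 cells, 0.5 under the limit, and 4 ± 7.53 in shRNA-Ctr cells. Its LS174T spots ran from 36 to 71 against −2 to 15, apart from each other, but with neither mean over 50 no fold is given.

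miR-548v was dimmest in shRNA-Ascl2/HT-29 cells, at 17 ± 5.10, against 51.3 ± 26.2 in shRNA-Ctr/HT-29 cells. It had 71.3 ± 27.0 in shRNA-Ascl2/LS174T and 88.5 ± 29.3 in shRNA-Ctr/LS174T cells. miR-548a-5p lay near the limit on every array, with 51.5 ± 22.2 in shRNA-Ascl2/HT-29 and 40.8 ± 11.6 in shRNA-Ctr/HT-29 cells, and 41.8 ± 6.02 in shRNA-Ascl2/LS174T and 73 ± 30.7 in shRNA-Ctr/LS174T cells. miR-548m passed the limit only in shRNA-Ctr/LS174T cells, at 59.3 ± 15.8, against 25 ± 9.31 in shRNA-Ascl2/LS174T cells. In HT-29 it had 6.5 ± 5 in shRNA-Ascl2 and 19 ± 5.94 in shRNA-Ctr cells.

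The 23 other members ran from −17 to 31.3 in shRNA-Ascl2/HT-29 and from −24 to 44.5 in shRNA-Ctr/HT-29 cells. In LS174T they ran from −22.3 to 28.3 in shRNA-Ascl2 and from −19.8 to 42.5 in shRNA-Ctr cells. miR-548n was the highest of them on 3 arrays and miR-548c-5p on the shRNA-Ascl2/LS174T array. The 3 sequence-matched members with the seed AAAGUAA, miR-548b-5p, miR-548w and miR-548y, stayed between −22.3 and 17 on all arrays. The relatives miR-570 and miR-603, also derived from MADE1, were above 50 on no array and ran from −7.5 to 20.8.

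A second reading of background came from 1108 empty spots, whose 95th percentile was 12 with shRNA-Ascl2 and 10 with shRNA-Ctr in HT-29, and 8 with shRNA-Ascl2 and 14 with shRNA-Ctr in LS174T. All 4 spots lay over it for 6 members (20%) with shRNA-Ascl2 and 13 (43.3%) with shRNA-Ctr in HT-29, and for 12 (40%) with shRNA-Ascl2 and 8 (26.7%) with shRNA-Ctr in LS174T. The same rule held for 51.2% to 57.7% of all human probes and 46.6% to 50% of viral probes over the 4 arrays. On this measure too the family's share was the lowest of the 3 classes on each array, and more members cleared the empty spots than the limit of 50.

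In HT-29 few human probes were called higher with Ascl2 silenced, and no member was. Ratios are of signals scaled by the median of the 471 miRNA probes above 50 on all arrays, and a member was called when it differed by at least 2-fold with the brighter array above 50. Of 6 members with a net signal above 50 on either array, 0 were called higher, where 3.65% of 576 human probes were, and 1 was called lower, where 9.03% were. The call was miR-548v, with a ratio of shRNA-Ascl2 to shRNA-Ctr of 0.357, resting on a shRNA-Ctr signal of 51.3 and a shRNA-Ascl2 signal under the limit. With values below 50 raised to 50 both of its arrays were at 50 after scaling and no fold is given. On this scale no member was called, where 2.26% of human probes were higher and 6.25% lower.

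The other tested members in HT-29 differed by less than 2-fold without correction for position. Their ratios were 0.622 for miR-548t, 0.638 for miR-548d-5p, 0.806 for miR-548e and 1.202 for miR-548l. Of the HT-29 arrays, miR-548a-5p passed 50 on that of shRNA-Ascl2 alone, where its mean was at least 1.11-fold higher. Such a bound sets the dimmer array at the limit of 50 net signal on that array's own scale, or at its own value where that is higher. It takes no account of the spread of spots, and those of miR-548a-5p overlapped, 25 to 79 with shRNA-Ascl2 and 26 to 51 with shRNA-Ctr. Over the 4 members above 50 on both HT-29 arrays, the log2 ratios had an SD of 0.44, against 0.59 over 502 human probes. With values below 50 raised to 50, the 6 tested members had a median log2 ratio of −0.16 (SD 0.38), against 0 (SD 0.66) over the human probes tested. Over all 30 members, whatever their signal, the scaled signal of shRNA-Ascl2 minus shRNA-Ctr in HT-29 had a median of −11.2, with 7 higher and 23 lower. Over all human probes the median was −6.82, with 425 higher and 851 lower, so most probes lay the same way.

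In LS174T 1 of 6 tested members was called higher, where 29.5% of 614 human probes were, and 2 were called lower, where 22.8% were. miR-548t was 2.49-fold higher in shRNA-Ascl2 than in shRNA-Ctr cells, but its log2 ratio turned to −1.86 when the arrays were scaled by the spike-in controls. miR-548l was lower in shRNA-Ascl2 cells, with a ratio of 0.460. miR-548m had a ratio of 0.440, and since its shRNA-Ascl2 signal was under the limit it was at least 1.14-fold lower. With values below 50 raised to 50, miR-548t and miR-548l kept their calls, where 26.1% and 16% of human probes were called higher and lower.

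The remaining tested members in LS174T were miR-548e with a ratio of 0.901, miR-548v with 0.839, and miR-548a-5p, whose mean was at least 1.40-fold lower. The miR-548a-5p spots overlapped, 34 to 47 with shRNA-Ascl2 and 43 to 100 with shRNA-Ctr. Over the 4 members above 50 on both LS174T arrays the log2 ratios had an SD of 1.01, against 1.52 over 468 human probes. With values raised to 50, the median log2 ratio was −0.29 (SD 0.82) over the 6 tested members and −0.13 (SD 1.49) over the human probes tested. By these SDs ratios spread more widely in LS174T than in HT-29, for the few tested members and for all human probes alike. The members compared were not the same: among those above 50 on both arrays, HT-29 had miR-548d-5p where LS174T had miR-548v. Over all 30 members the scaled difference had a median of 2.89, with 16 higher and 14 lower in shRNA-Ascl2 cells, and over all human probes −0.20, with 631 higher and 645 lower.

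**Figure D3:**
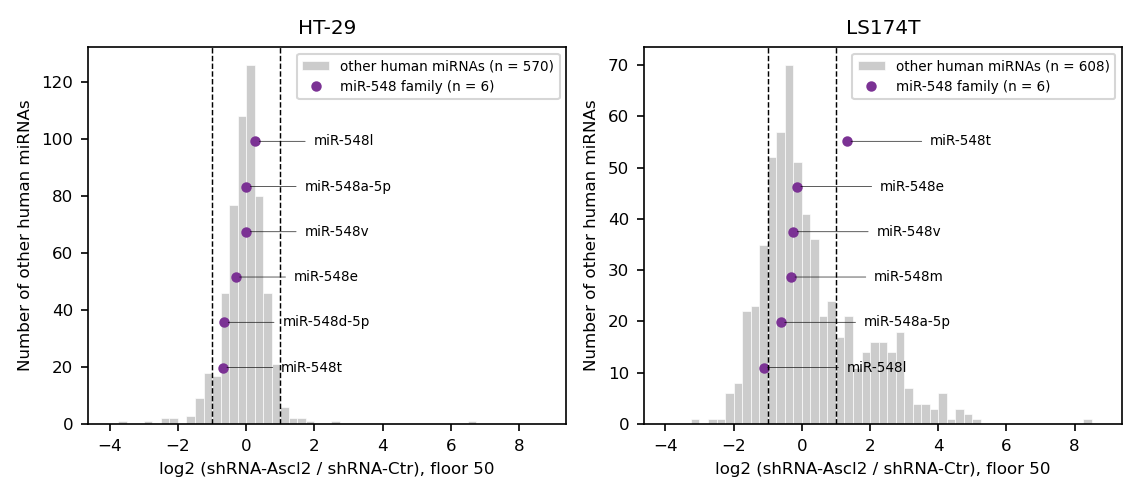
Log2 ratio of shRNA-Ascl2 to shRNA-Ctr signal, with values below 50 raised to 50, in HT-29 (left) and LS174T (right); grey bars count the other human miRNAs tested and purple points are the 6 tested members, whose height carries no value. Dashed lines mark 2-fold, which miR-548t and miR-548l passed in LS174T and no member passed in HT-29.

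The position of a spot on the array moved with several of these ratios. The 4 spots of a member were split evenly between a first range of blocks (1 to 18) and a second one (19 to 36). Landmark controls here were probes with spike-in names that are spotted many times over the array, not a separately labelled class. In the second range, relative to the first, they stood at 0.604 with shRNA-Ascl2 and 1.27 with shRNA-Ctr in HT-29. In LS174T they stood at 1.02 with shRNA-Ascl2 and 0.676 with shRNA-Ctr. miR-548v in HT-29 had a ratio of 0.183 from the first and 0.853 from the second range. miR-548l in LS174T had 0.595 from the first and 0.285 from the second range. For miR-548t in LS174T the first range gave 2.39 and the second 2.21. With each spot divided by the landmark signal of its block, the ratios were 0.542 for miR-548v in HT-29, 0.801 for miR-548l in LS174T and 2.58 for miR-548t in LS174T, so that miR-548t alone of these 3 stayed past 2-fold. The same correction gave miR-548t in HT-29 a ratio of 0.268, past 2-fold lower, where the uncorrected ratio was 0.622. In its block of the second range the landmark signal, relative to its median over the array, was 0.418 with shRNA-Ascl2 and 0.157 with shRNA-Ctr, while its own net signal there was 93.5 with shRNA-Ascl2 and 208 with shRNA-Ctr.

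**Figure D4:**
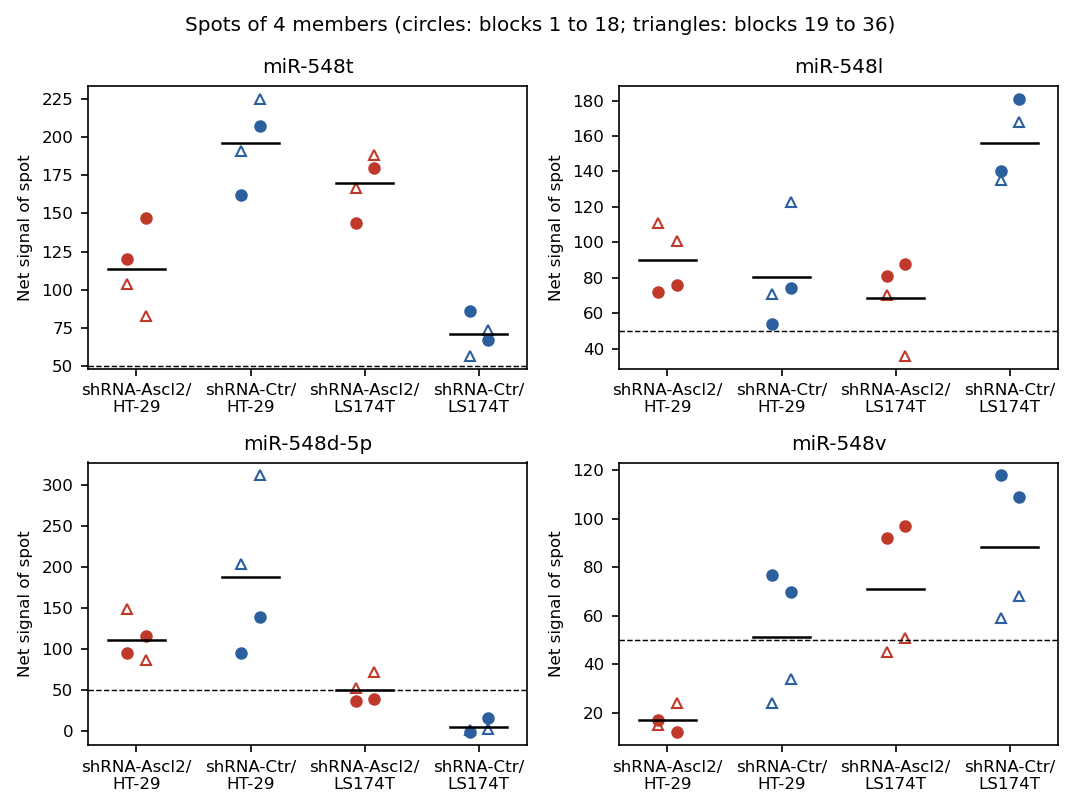
Net signal (linear intensity) of the 4 spots of miR-548t, miR-548l, miR-548d-5p and miR-548v on each array, with filled circles for blocks 1 to 18, open triangles for blocks 19 to 36, and a bar at the mean; the dashed line is the limit of 50. The 2 block ranges of miR-548v lay apart on 3 arrays. Spots of miR-548t had no overlap between vectors in either line, a trait not counted over all human probes.

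Between the lines, miR-548d-5p was higher in HT-29 with either vector. With shRNA-Ascl2 its scaled signal was 107.1 in HT-29 and 54.4 in LS174T, at least 1.95-fold higher in HT-29. With shRNA-Ctr it was 167.8 in HT-29 and 4.22 in LS174T, at least 3.18-fold higher. miR-548v lay the other way, with shRNA-Ascl2 at 16.4 in HT-29 and 78.4 in LS174T, and with shRNA-Ctr at 45.9 in HT-29 and 93.4 in LS174T. For miR-548t the ratio of HT-29 to LS174T was 0.585 in shRNA-Ascl2 and 2.35 in shRNA-Ctr cells, and for miR-548l 1.15 and 0.438. Every shRNA-Ctr comparison between the lines uses the shRNA-Ctr/LS174T array that stands apart. With shRNA-Ascl2 the miR-548l spots overlapped between the lines, 72 to 111 in HT-29 and 36 to 88 in LS174T. Whether the order of the lines depends on the vector was therefore not settled for these members.

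A limma fit over the 4 arrays, with vector and line as terms, left 1 residual degree of freedom. Of 554 human probes tested, 6 of them members, 0 passed an adjusted p of 0.05 for either term, and at an unadjusted p under 0.05 there were 0 probes for the vector and 29 for the line, none a member. All 6 members had an adjusted p of 0.993 for shRNA-Ascl2 minus shRNA-Ctr by limma with Benjamini-Hochberg adjustment. For HT-29 minus LS174T miR-548d-5p had a log2 difference of 1.36 (SE 0.62, limma adjusted p = 0.825), in the same direction with both vectors. The number of arrays limits the precision, and whether the vector acted differently in the 2 lines could not be tested, since that fit has no residual degree of freedom.

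Most of the other listed miRNAs derived from transposable elements were above background on each array. Of 8 on the list, which includes both arms of miR-28 and miR-151 from L2 elements, 6 were above 50 with shRNA-Ascl2 and 6 with shRNA-Ctr in HT-29, and 7 with shRNA-Ascl2 and 5 with shRNA-Ctr in LS174T. Of all human probes, 41.5% were above 50 with shRNA-Ascl2 and 43.0% with shRNA-Ctr in HT-29. In LS174T 41.8% were with shRNA-Ascl2 and 43.0% with shRNA-Ctr. miR-151-5p had 3560.8 in shRNA-Ascl2/HT-29 and 4053.5 in shRNA-Ctr/HT-29 cells, but probes differ in affinity and their signals do not rank the miRNAs. In HT-29 0 of 6 tested were called, where 3.65% of 576 human probes were called higher and 9.03% lower, so this 0 says little. In LS174T 6 of 7 were called higher, and 5 with values below 50 raised to 50, since miR-95 had 73.8 with shRNA-Ascl2 and 19 with shRNA-Ctr. These calls rest on the same arrays as those of the family, with 29.5% of human probes called higher in LS174T, and 26.1% with values raised.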

How the data were processed

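RNA from 4 stable transfectants was labelled with Hy3 and hybridised to Exiqon arrays, 1 each. The authors deposited GenePix tables of foreground and background-subtracted intensity for 12312 spots per array. A second deposited table held each probe's median net signal divided by 378, 398, 330.5 and 335, a median-scaled ratio left blank at or below 0; it served as an alternative. Deposited lists of the authors' own fold changes were not used.

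Spots of a probe were averaged, scaled over 471 miRNA probes to a common 361, and compared by a 2-fold filter with a limit of 50 (Python 3.11.15, pandas 2.3.3, numpy 2.4.6, scipy 1.17.1). limma 3.58.1 in R 4.3.3 fitted log2 values with a floor of 50 for probes with a mean above 50. These steps were tested on simulated data, with changes placed only in probes brighter than most members, so the range of most members was not covered. Members above 50 on any array and members called were named with values, the rest by range. Sequences came from RefSeq, matched for 538 human probes. The members and lists were chosen with earlier results of these data known. Likeness of patterns over 4 arrays is not reported, being too few arrays. The alternatives tried changed limit, blocks, spot summary, scaling, background, landmark correction, fold and floor.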

Additional observations from a re-analysis of the deposited data

Results flagged for a closer look

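The log2 ratio of shRNA-Ascl2 to shRNA-Ctr cells had opposite signs in the lines for miR-548t and miR-548l. For miR-548t the log2 ratio in HT-29 minus that in LS174T was −2.003. For miR-548l it was 1.39, and its spots overlapped in HT-29. Under spike-in scaling miR-548t had a log2 ratio of −1.86 in LS174T, the same sign as in HT-29, so its opposite signs depend on the scaling. With 1 array per condition neither difference was tested, and both rest on the shRNA-Ctr/LS174T array that stands apart.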

How the results depend on the processing

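No paired analysis was possible because each group had 1 array, and for the same reason no array was left out. Settings using empty spots, a limit of 25 for calls or values raised to 50 were chosen after seeing the data. The cause of each change was not tested unless the setting itself gives it.

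With a limit of 100, members above background numbered 2 with shRNA-Ascl2 and 2 with shRNA-Ctr in HT-29, and 1 with each vector in LS174T. A limit of 25 gave 8 on the shRNA-Ctr/HT-29 array and 7 on that of shRNA-Ascl2/LS174T. The empty spots gave 13 on the shRNA-Ctr/HT-29 array and 12 on that of shRNA-Ascl2/LS174T, and blocks 19 to 36 alone 3 in shRNA-Ctr/LS174T cells. The count called lower in HT-29, 1, became 3 at 1.5-fold, 2 with the landmark correction (miR-548i and miR-548t in place of miR-548v), and 0 at 3-fold, with a limit of 100, with both arrays above 50, with normexp or with values raised to 50. Blocks 19 to 36 also gave 1, but miR-548c-5p in place of miR-548v. The count called lower in LS174T, 2, became 1 in blocks 1 to 18 (miR-548m), in blocks 19 to 36 (miR-548l), with a limit of 100, with both arrays above 50, with quantile normalization or with values raised to 50, 0 at 3-fold or with normexp, and 6 with spike-in scaling. The landmark correction kept it at 2, with miR-548a-5p in place of miR-548l. The count called higher in LS174T, 1, became 2 in blocks 19 to 36 or with the landmark correction, and 3 with a limit of 25. It became 0 at 3-fold, with normexp or with spike-in scaling. Spike-in scaling moves the LS174T ratios of all probes by the same factor, so its counts are not particular to the family. Except for empty spots and values raised to 50, shares over all human probes were not counted under these alternatives. The counts are therefore no result about the family.

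The median log2 ratio in HT-29 became −0.67 with a limit of 100, which left only miR-548t and miR-548d-5p. In LS174T the median became 0.27 in blocks 19 to 36. With a limit of 100 it became 0.098, the midpoint of miR-548t (1.32) and miR-548l (−1.12), the only members left. With spike-in scaling it became −3.01, and miR-548t in LS174T turned to a log2 ratio of −1.86. The count called higher in HT-29 stayed 0 in all 16 alternatives. Only 3.65% of human probes were called higher there in the main setting, so this 0 says little of stability. The limma fit, with 1 residual degree of freedom, called no human probe under any setting, so its counts say nothing of stability. Of the 7 members that passed 50 anywhere, miR-548e, miR-548v, miR-548a-5p and miR-548m stayed under 100 on every array, which restricts what their ratios can resolve.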
